A study of Homo sapiens with 18 samples.

Results

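The genes of glycolysis and of the response to low oxygen were followed in human fibroblasts in which CDKN1A, KDM1A or SPP1 had been knocked down by CRISPR. They are a list of 38 gene symbols with a known function in these pathways, drawn up with earlier results of these data known, out of 35579 genes with an assigned transcript. Of the 38, 36 passed the filter on low counts, as did 13527 genes in all. The cells were hiF-T, a line of fibroblast-like human cells made from BJ skin fibroblasts, whose hTERT (telomerase) expression can be induced. Poly(A) RNA was sequenced in bulk from 18 libraries of this line, with biological replicates 1 and 2 for every guide. Control guides, titled backbone, were used in 4 libraries (guides 1 and 2). Guides against CDKN1A, the cell cycle inhibitor p21, were used in 4 libraries (guides 1 and 2). Guides against KDM1A, the histone demethylase LSD1, were used in 4 libraries (guides 2 and 3), and guides against SPP1, the secreted protein osteopontin, in 6 (guides 1, 2 and 3). The labels give the genotype of all 18 as WT and do not say whether hTERT was induced, whether the control guides have a target, or whether replicates were separate transductions. P-values therefore measure the spread between these libraries, which may in part be technical.

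Glycolysis splits glucose into pyruvate in the cytosol. Glucose enters through transporters, is phosphorylated by hexokinase and phosphofructokinase in steps that commit it to breakdown, and the pyruvate is then either turned into lactate and exported or burned in mitochondria. The transcription factor HIF-1, a pair of HIF1A and ARNT, raises many of these genes when oxygen is low. With oxygen present, prolyl hydroxylases such as EGLN1 mark the HIF1A protein for destruction through VHL, so HIF1A activity is set mainly at the level of the protein, which was not measured here.

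HIF-1 binds DNA at a short core, ACGTG or GCGTG. The 250 bases before the RefSeq start (GRCh38.p14) were at hand for 34 of the 38 genes, and 22 of those (64.7%) held a core on either strand. Over the promoters of all genes tested here with an entry the share was 57.4%, and over the whole promoter table it was 43.1%. The mean GC content of these 3 sets was 67.2%, 64.0% and 56.9%, in the same order as the shares. The ACGTG form alone, on either strand, stood in 44.1% of the glycolysis and hypoxia promoters and in 23.4% of the tested ones, and the palindrome CACGTG, which holds ACGTG on both strands, in 14.7% and 8.79%. Promoters with 2 or more cores were 23.5% of the former and 25.0% of the latter. A match describes the letters and does not show binding. Shown are the 250 bases of 5 genes whose mRNA differed from control in a knockdown and which differ in how many cores they hold, with every core, on the strand shown or as its reverse complement, in capitals. They lie directly upstream of the RefSeq start at chr19:8363905-8364154 (plus strand) for ANGPTL4, chr11:10304823-10305072 (plus) for ADM, chr2:74833877-74834126 (plus) for HK2, chr11:18394313-18394562 (plus) for LDHA and chr1:42958869-42959118 (minus) for SLC2A1.
ANGPTL4: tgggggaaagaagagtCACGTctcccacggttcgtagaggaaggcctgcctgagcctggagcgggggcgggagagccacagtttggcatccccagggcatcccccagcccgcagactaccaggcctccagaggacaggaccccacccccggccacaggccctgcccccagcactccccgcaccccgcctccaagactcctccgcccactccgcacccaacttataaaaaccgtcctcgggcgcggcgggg
ADM: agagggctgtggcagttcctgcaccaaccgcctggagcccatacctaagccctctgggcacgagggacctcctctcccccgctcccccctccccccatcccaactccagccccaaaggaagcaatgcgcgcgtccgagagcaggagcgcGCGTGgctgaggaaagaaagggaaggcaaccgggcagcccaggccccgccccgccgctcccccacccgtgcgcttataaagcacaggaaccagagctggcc
HK2: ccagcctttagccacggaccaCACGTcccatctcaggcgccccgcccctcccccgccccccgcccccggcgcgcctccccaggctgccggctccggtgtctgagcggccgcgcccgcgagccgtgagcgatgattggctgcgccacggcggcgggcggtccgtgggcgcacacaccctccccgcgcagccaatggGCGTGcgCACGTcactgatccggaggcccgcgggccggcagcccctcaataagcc
LDHA: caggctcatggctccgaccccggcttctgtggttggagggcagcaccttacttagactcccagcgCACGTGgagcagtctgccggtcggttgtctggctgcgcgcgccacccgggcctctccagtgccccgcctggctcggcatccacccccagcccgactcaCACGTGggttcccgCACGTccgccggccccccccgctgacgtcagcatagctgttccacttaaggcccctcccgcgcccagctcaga
SLC2A1: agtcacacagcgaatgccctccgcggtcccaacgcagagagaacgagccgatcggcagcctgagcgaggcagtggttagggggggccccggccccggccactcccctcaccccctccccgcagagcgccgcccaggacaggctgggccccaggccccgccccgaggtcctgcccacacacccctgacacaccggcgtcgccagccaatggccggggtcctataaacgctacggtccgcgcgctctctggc
ANGPTL4 and ADM each held 1 core in this window, HK2 and LDHA each held 3 runs of capitals, and SLC2A1 held none.

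Estimated counts, in units of 1e6, summed to 11.91 to 17.02 in a library, with 12478 to 13161 genes at 10 or more. CPM are counts per 1e6, scaled by TMM, edgeR's trimmed mean of M-values. CDKN1A mRNA stood at 540.1 to 695 CPM in control, 275 to 290.0 with CDKN1A guide 1 and 427 to 435 with guide 2. KDM1A mRNA stood at 110.1 to 125 CPM in control, 73.2 to 75.0 with KDM1A guide 2 and 50.7 to 52.0 with guide 3. SPP1 mRNA stood at 55.2 to 72.7 CPM in control, 24.2 to 26.9 with SPP1 guide 1 and 47.4 to 55.2 with guide 2. The library labelled SPP1 guide 3 replicate 1 held 63.0 CPM of SPP1, inside the control range, and replicate 2 held 21.7. Of 9 fibroblast markers, 8 reached 1 TPM (transcripts per 1e6, a level per length) in every group, and THY1 did not. The summed level of all 9 was 11231 to 14659 TPM per library. Keratinocyte markers summed to 142.8 to 195 TPM, of which KRT10 was the only one at or over 1 TPM in all groups, with KRT1 at 0 throughout. Melanocyte markers summed to 2.25 to 5.44 TPM, endothelial markers to 19.0 to 33.8 TPM with only TEK at or over 1, and leukocyte markers to 0.389 to 2.18 TPM. Their part in any difference was not tested, and fewer cells of a type cannot be told apart from less RNA per cell.

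In control cells the highest levels were those of some genes of the late steps of glycolysis and of lactate formation. PGK1, also of a late step, was not among them. GAPDH, the triose phosphate dehydrogenase, stood first at 5862 ± 163 TPM (SD, n = 4), and PKM, ENO1 and LDHA followed at 2346 ± 191, 2111 ± 48.1 and 1972 ± 96.0 TPM. The ranges of PKM and ENO1 over the 4 control libraries overlapped, as did those of ENO1 and LDHA. At the other end PFKFB4, a regulator of phosphofructokinase, held 4.43 ± 1.33 TPM and the aldolase ALDOC 4.36 ± 0.463 TPM, also with overlapping ranges. Among the hypoxia genes HIF1A stood at 269 ± 25.7 TPM and the peptide hormone gene ADM at 222 ± 36.2 TPM. The carbonic anhydrase gene CA9 and the hydroxylase gene EGLN3, both classic HIF targets, did not pass the filter. CA9 held 0 estimated counts in all 4 control libraries and at most 1 in any other, and EGLN3 held 0 to 2 in every group. All 38 genes together made up 1.78% ± 0.017 of the deposited TPM in control (SD, n = 4) and 1.80% ± 0.013 with CDKN1A guides (n = 4). With KDM1A guides they made up 1.78% ± 0.032 (n = 4) and with SPP1 guides 1.85% ± 0.039 (n = 6). The total includes transcripts without an assigned gene.

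**Figure D1:**
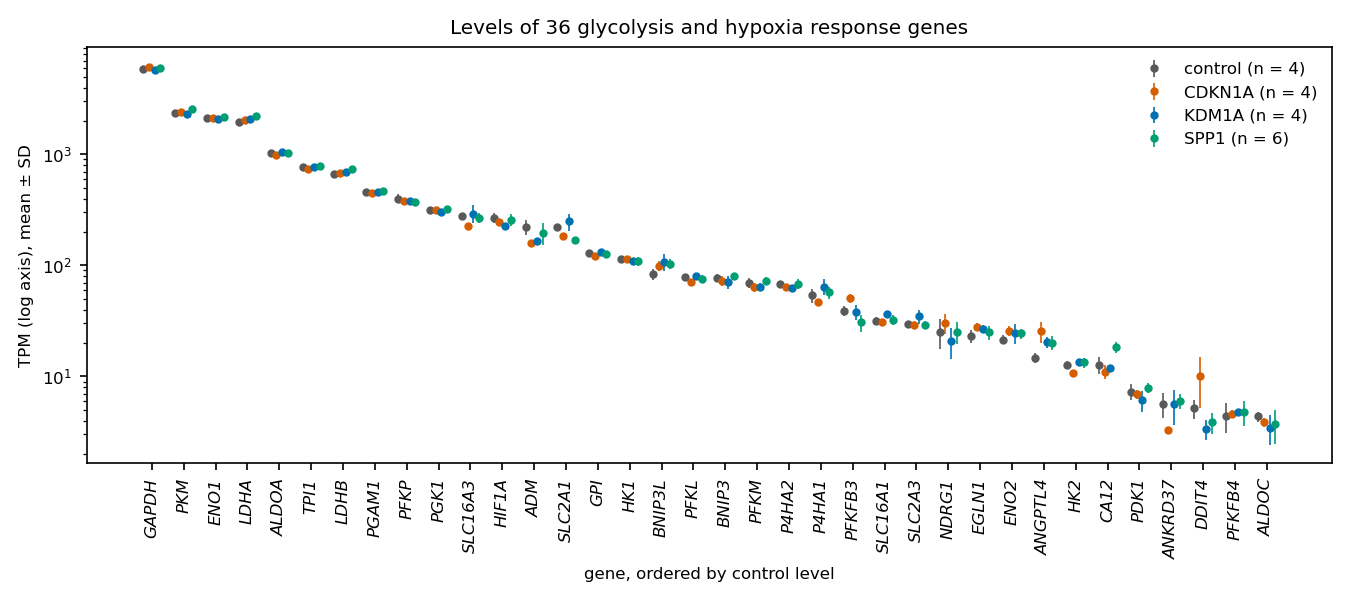
Mean level in TPM (log axis) of the 36 genes that passed the filter, ordered by their control level, with the SD over the libraries of each group (control, CDKN1A and KDM1A guides n = 4, SPP1 guides n = 6). The order of the genes is close to the same in the 4 groups, from GAPDH at 5862 TPM to ALDOC at 4.36 TPM in control.

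Most steps were carried by 1 isoenzyme. SLC2A1 made up 88.2% ± 0.99 of the transcripts of SLC2A1 and SLC2A3 in control (SD, n = 4), HK1 89.8% ± 1.3 of HK1 and HK2, and PFKP 72.9% ± 2.2 of the 3 phosphofructokinase genes. ALDOA made up 99.6% ± 0.062 of aldolase A and C, ENO1 99.0% ± 0.11 of enolase 1 and 2, LDHA 74.7% ± 0.60 of LDHA and LDHB, and the lactate exporter SLC16A3 89.7% ± 0.84 of SLC16A1 and SLC16A3. None of these main forms lost first place in any group. The HK1 share was 91.4% ± 0.32 with CDKN1A guides, where its 4 libraries (91.0% to 91.6%) lay above the 4 control libraries (88.4% to 90.9%).

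Only a few of these genes changed against control. ANGPTL4, a secreted inhibitor of lipoprotein lipase and a HIF and PPAR target, was higher in all 3 knockdowns. The other calls were HK2 lower with CDKN1A guides, HIF1A and ADM lower with KDM1A guides, and LDHA and PFKM higher with SLC2A1 lower with SPP1 guides. Genes called are those whose adjusted p was under 0.05, by edgeR's quasi-likelihood test with Benjamini-Hochberg adjustment over all 13527 genes. With CDKN1A guides 2 of the 36 genes were called, 1 up and 1 down (5.56%), where 2.00% of all tested genes were called. With KDM1A guides 3 were called, 1 up and 2 down (8.33%), against 9.05% of all tested genes, and with SPP1 guides 4, 3 up and 1 down (11.1%), against 5.46%. The median log2 fold change of the 36 was -0.04, 0.004 and 0.045 in that order, and that of all tested genes was -0.004, -0.011 and 0.004. The 3 comparisons share the 4 control libraries, so a gene high or low in control by chance enters all of them.

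**Figure D2:**
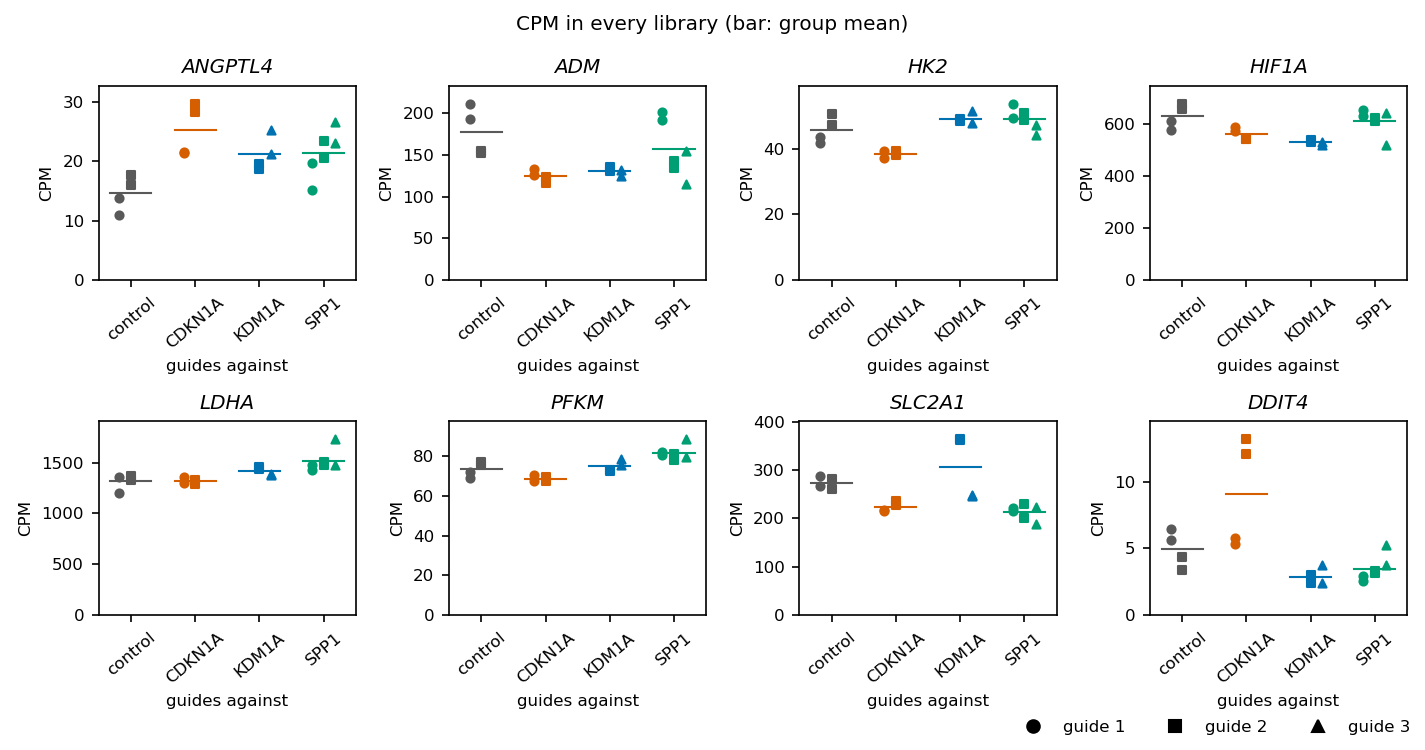
CPM in each of the 18 libraries for the 7 genes called in a knockdown against control and for DDIT4, with the marker shape giving the guide and the bar the group mean. ANGPTL4 lies above control in 4 of 4 CDKN1A, 4 of 4 KDM1A and 5 of 6 SPP1 libraries, while the control libraries split by guide, without overlap, in all of these genes but LDHA and SLC2A1.

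In these calls each library counts as a sample, also where 2 carry the same guide. With the libraries of each guide summed, edgeR called 0 of the 36 genes in every comparison of knockdowns with control or with each other, while 7 (CDKN1A), 3 (KDM1A) and 7 (SPP1) against control had an unadjusted p under 0.05. With libraries kept apart, 15, 7 and 10 had one, and DESeq2 called 3, 4 and 7. For these and the later refits the share of all tested genes called is not given here. Their counts, also those of 0, can therefore not be read as particular to the 36 genes. The genes that DESeq2 added were ADM with CDKN1A guides, BNIP3L with KDM1A guides, and LDHB, BNIP3L and CA12 with SPP1 guides. With an offset for transcript length in edgeR 7 of the 9 calls against control were lost, and ANGPTL4 with CDKN1A guides and SLC2A1 with SPP1 guides stayed. Each of the 9 was lost when at least 1 of the guides compared was left out with both its libraries. Without the library labelled SPP1 guide 3 replicate 1, whose SPP1 mRNA was in the control range, the SPP1 comparison gave 1 call, LDHA (log2 0.22, adjusted p 0.0353), with ANGPTL4 at 0.48 (0.0846), PFKM at 0.17 (0.0566) and SLC2A1 at -0.32 (0.0712).

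Glucose uptake was represented by SLC2A1 (GLUT1), the main transporter of most cultured cells, and SLC2A3 (GLUT3), a high-affinity form. Values of a group are given in the order of its guide numbers, replicate 1 before replicate 2. SLC2A1 stood at 288, 267, 282 and 260.2 CPM in control, 216, 217, 235 and 228 with CDKN1A guides, 363, 364, 249 and 246 with KDM1A guides and from 189 to 231 with a median of 218 with SPP1 guides. All 6 SPP1 libraries and all 4 CDKN1A libraries lay below all control libraries, and the KDM1A libraries split, with guide 2 above control and guide 3 below it. The log2 fold change of SLC2A1 was -0.36 ± 0.10 (SE, adjusted p = 0.0335) with SPP1 guides, -0.29 ± 0.11 (SE, adjusted p = 0.165) with CDKN1A guides and 0.16 ± 0.11 (SE, adjusted p = 0.414) with KDM1A guides. The SPP1 call was lost without control guide 1 replicate 1, control guide 1 replicate 2, control guide 2 replicate 1, SPP1 guide 2 replicate 1 or the library labelled SPP1 guide 3 replicate 1, at an adjusted p of up to 0.0922 and log2 fold changes of -0.38 to -0.32 over all 18 such fits. SLC2A3 stood at 49.5, 46.7, 51.7 and 51.5 CPM in control, 43.8, 45.8, 45.1 and 47.3 with CDKN1A guides, 54.2, 55.8, 51.4 and 47.9 with KDM1A guides and from 42.1 to 51.8 with a median of 44.8 with SPP1 guides. It was not called against control (adjusted p 0.338, 0.586 and 0.307 for CDKN1A, KDM1A and SPP1 guides).

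Among the 8 genes of the hexose phosphate steps, HK2 fell with CDKN1A guides and PFKM rose with SPP1 guides. HK2 is the hexokinase form that many growing and tumour cells raise, and PFKM is the muscle form of phosphofructokinase. HK2 stood at 41.8, 43.7, 50.7 and 47.4 CPM in control, 39.3, 37.2, 39.2 and 38.1 with CDKN1A guides, 49.1, 48.4, 48.1 and 51.5 with KDM1A guides and from 44.1 to 53.8 with a median of 49.2 with SPP1 guides. The 4 CDKN1A libraries were lower than all 14 others. Against control the log2 fold change of HK2 was -0.26 ± 0.06 (SE, adjusted p = 0.0438) with CDKN1A guides, 0.10 ± 0.06 (SE, adjusted p = 0.364) with KDM1A guides and 0.10 ± 0.06 (SE, adjusted p = 0.352) with SPP1 guides. The CDKN1A call of HK2 stayed in only 3 of 18 fits that each left out 1 library (control guide 1 replicate 1, SPP1 guide 1 replicate 1 or SPP1 guide 3 replicate 2). Over the 18 fits the log2 fold change ran from -0.30 to -0.20 and the adjusted p reached 0.153.

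PFKM stood at 72.02, 68.8, 75.6 and 77.0 CPM in control, 70.4, 67.4, 67.6 and 69.8 with CDKN1A guides, 72.9, 72.6, 75.8 and 78.6 with KDM1A guides and from 78.0 to 88.8 with a median of 81.0 with SPP1 guides. All 6 SPP1 libraries were above all 4 control libraries, by little. The log2 fold change of PFKM was 0.16 ± 0.04 (SE, adjusted p = 0.0481) with SPP1 guides, -0.09 ± 0.05 (SE, adjusted p = 0.365) with CDKN1A guides and 0.03 ± 0.05 (SE, adjusted p = 0.759) with KDM1A guides. The SPP1 call of PFKM stayed in only 3 of the 18 fits that left out 1 library (control guide 2 replicate 2, KDM1A guide 3 replicate 2 or SPP1 guide 2 replicate 1), with log2 fold changes of 0.13 to 0.18 and an adjusted p of up to 0.192. With the offset for transcript length it was 0.07 ± 0.09 (SE, adjusted p = 0.771). PFKFB4, which makes the activator of phosphofructokinase, stood at 5.81, 6.62, 4.43 and 4.74 CPM in control, 7.13, 5.58, 6.63 and 6.84 with CDKN1A guides, 5.46, 5.55, 7.34 and 6.60 with KDM1A guides and from 5.29 to 9.74 with a median of 7.66 with SPP1 guides. It overlapped control in every knockdown and was not called (adjusted p 0.495, 0.556 and 0.112). HK1, GPI, PFKL, PFKP and PFKFB3 were not called against control either. Their log2 fold changes ran from -0.17 (PFKL) to 0.28 (PFKFB3) with CDKN1A guides, from -0.21 (PFKFB3) to 0.10 (GPI) with KDM1A guides and from -0.29 (PFKFB3) to 0.04 (GPI) with SPP1 guides.

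The 9 genes of the triose phosphate steps, from aldolase to pyruvate kinase, gave 0 calls in any knockdown against control by edgeR or DESeq2, with 1 gene (CDKN1A guides), 0 (KDM1A guides) and 1 (SPP1 guides) at an unadjusted p under 0.05. Of all tested genes edgeR called 2.00%, 9.05% and 5.46% in that order. GAPDH, often used as a reference gene, stood at 4275, 3974, 4245 and 4323 CPM in control, 4495, 4298, 4290.4 and 4188 with CDKN1A guides, 3966, 4125, 4311 and 4249 with KDM1A guides and from 4044 to 4929 with a median of 4282 with SPP1 guides. Its log2 fold change was 0.04, -0.01 and 0.04 with 95% intervals of -0.08 to 0.16, -0.13 to 0.10 and -0.07 to 0.15 for CDKN1A, KDM1A and SPP1 guides. PGK1, which makes the first ATP of the pathway, stood at 354, 309, 335 and 347 CPM in control, 339.9, 331, 325 and 333 with CDKN1A guides, 327, 324, 322 and 326 with KDM1A guides and from 329 to 375 with a median of 346 with SPP1 guides. Every knockdown overlapped control in both genes. The 4 KDM1A libraries lay below all 6 SPP1 libraries in PGK1, where the test between these groups gave -0.10 (adjusted p 0.152). ENO2, the neuronal enolase, stood at 29.5, 24.03, 23.8 and 24.9 CPM in control, 29.2, 27.4, 30.8 and 31.1 with CDKN1A guides, 33.4, 31.7, 23.998 and 24.9 with KDM1A guides and from 25.8 to 33.2 with a median of 29.8 with SPP1 guides. It was not called against control (adjusted p 0.318, 0.405 and 0.203), and the KDM1A guides lay apart. With each guide taken alone against control, ENO2 was called higher with KDM1A guide 2 (0.35 (SE 0.08, adjusted p 0.0109)) and with SPP1 guide 1 (0.33 (SE 0.08, adjusted p 0.0380)). Leaving out ENO2 and ALDOC, the log2 fold changes of the other 7 genes (ALDOA, TPI1, GAPDH, PGK1, PGAM1, ENO1 and PKM) lay between -0.13 and 0.04 with CDKN1A guides, -0.05 and 0.01 with KDM1A guides, and 0.02 and 0.08 with SPP1 guides. ALDOC, at a low level, gave -0.30, -0.43 and -0.12 and was not called.

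Several of these genes have processed pseudogenes, between which kallisto can divide reads. Of 13 related genes looked up, some pseudogenes and some protein-coding, LDHAP4 held the most, with a mean of 102 estimated counts per library. The pseudogene PGAM1P8 held 22.8 and the protein-coding GAPDHS 17.9. The other 10 held under 5 on average. Pseudogenes of GAPDH, ENO1, PKM and ALDOA were not among the 13, so reads shared with those were not looked at.

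Of the 5 genes of lactate and pyruvate fate, LDHA rose with SPP1 guides. LDHA is the main subunit of the enzyme that turns pyruvate into lactate. LDHA stood at 1360.4, 1205, 1328 and 1367 CPM in control, 1358, 1300.4, 1292 and 1334 with CDKN1A guides, 1442, 1459.5, 1378 and 1386 with KDM1A guides and from 1431 to 1734 with a median of 1475 with SPP1 guides. All 6 SPP1 libraries and all 4 KDM1A libraries were above the highest control library, and SPP1 guide 3 replicate 2 was highest of all. The log2 fold change of LDHA was 0.20 ± 0.05 (SE, adjusted p = 0.0290) with SPP1 guides, 0.11 ± 0.06 (SE, adjusted p = 0.280) with KDM1A guides and 0.01 ± 0.06 (SE, adjusted p = 0.975) with CDKN1A guides. The SPP1 call of LDHA was lost only without control guide 1 replicate 2 (log2 fold change 0.17, adjusted p 0.120) among 18 fits that left out 1 library. Without SPP1 guide 3 replicate 2 it was 0.16 (adjusted p 0.0257). It was also lost without both libraries of SPP1 guide 2 (0.22, adjusted p 0.0581) or of control guide 1 (0.17, adjusted p 0.249).

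SLC16A3 (MCT4) exports lactate, and PDK1 inhibits pyruvate dehydrogenase and so keeps pyruvate out of the citrate cycle. SLC16A3 stood at 263, 236, 228 and 220.0 CPM in control, 201, 187, 198 and 192 with CDKN1A guides, 267, 275, 223 and 211 with KDM1A guides and from 187 to 268 with a median of 221 with SPP1 guides. The 4 CDKN1A libraries lay below all control libraries, but the gene was not called (-0.28 ± 0.10 (SE, adjusted p = 0.134)). PDK1 stood at 18.8, 15.7, 15.3 and 15.1 CPM in control, 17.9, 17.2, 15.1 and 16.96 with CDKN1A guides, 12.1, 12.6, 18.1 and 17.5 with KDM1A guides and from 16.2 to 19.2 with a median of 16.97 with SPP1 guides. It was not called either (adjusted p 0.882, 0.645 and 0.673), and KDM1A guide 2 held its lowest values. LDHB gave a log2 fold change of 0.15 (SE 0.05, adjusted p 0.0641) with SPP1 guides, where all 6 libraries were above control, and SLC16A1 (MCT1) lay between -0.02 and 0.02 in the 3 knockdowns.

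HIF1A mRNA fell with KDM1A guides. It stood at 578, 613, 656 and 679 CPM in control, 573, 589, 541 and 541 with CDKN1A guides, 533, 537, 531 and 519.6 with KDM1A guides and from 520.0 to 655 with a median of 627 with SPP1 guides. The 4 KDM1A libraries lay close together and below all 4 control libraries, the CDKN1A libraries overlapped control at one end, and SPP1 guide 3 replicate 2 was low among its group. The log2 fold change of HIF1A was -0.25 ± 0.06 (SE, adjusted p = 0.0166) with KDM1A guides, -0.17 ± 0.06 (SE, adjusted p = 0.179) with CDKN1A guides and -0.04 ± 0.06 (SE, adjusted p = 0.750) with SPP1 guides. The KDM1A call of HIF1A was lost without control guide 2 replicate 1, control guide 2 replicate 2 or KDM1A guide 3 replicate 2, at an adjusted p of up to 0.0702, and log2 fold changes over all 18 such fits were -0.29 to -0.21. EGLN1, the prolyl hydroxylase that marks HIF1A, stayed between 65.8 to 74.5 CPM with SPP1 guides, 66.3 to 71.96 in control, 70.0 to 72.3 with CDKN1A guides and 70.4 to 72.4 with KDM1A guides. It varied least of all 36 genes, with an SD of log2 CPM of 0.053 over the 18 libraries.

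Of the 10 other HIF targets tested, ANGPTL4 rose in all 3 knockdowns. ANGPTL4 stood at 13.8, 11.0, 17.8 and 16.00 CPM in control, 21.5, 21.6, 29.8 and 28.3 with CDKN1A guides, 18.8, 19.6, 21.3 and 25.3 with KDM1A guides and from 15.2 to 26.6 with a median of 21.9 with SPP1 guides. No CDKN1A or KDM1A library overlapped control, and 1 SPP1 library (guide 1 replicate 2) did. The log2 fold change of ANGPTL4 was 0.78 ± 0.16 (SE, adjusted p = 0.0202) with CDKN1A guides, 0.54 ± 0.16 (SE, adjusted p = 0.0466) with KDM1A guides and 0.55 ± 0.15 (SE, adjusted p = 0.0421) with SPP1 guides. The 2 replicates of control guide 1 were lowest of all 18 libraries, and without either of them every one of the 3 calls was lost. The CDKN1A call was also lost without either library of CDKN1A guide 2 (18 fits, log2 0.67 to 0.90, adjusted p up to 0.0713). The KDM1A call was lost too without control guide 2 replicate 2, any KDM1A library, SPP1 guide 1 replicate 1 or SPP1 guide 2 replicate 2 (log2 0.43 to 0.66, adjusted p up to 0.161). The SPP1 call was lost too without control guide 2 replicate 2 or any library of SPP1 guides 2 and 3 (log2 0.43 to 0.66, adjusted p up to 0.176).

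ADM, which encodes the vasodilator adrenomedullin, fell with KDM1A guides. ADM stood at 212, 194, 155 and 153 CPM in control, 134, 126, 124 and 116 with CDKN1A guides, 136, 131, 125 and 132 with KDM1A guides and from 115 to 201 with a median of 149 with SPP1 guides. All KDM1A and all CDKN1A libraries were below all control libraries, and within control guide 1 was higher than guide 2. The log2 fold change of ADM was -0.44 ± 0.14 (SE, adjusted p = 0.0481) with KDM1A guides, -0.51 ± 0.14 (SE, adjusted p = 0.0573) with CDKN1A guides and -0.18 ± 0.12 (SE, adjusted p = 0.432) with SPP1 guides, so that the larger CDKN1A difference missed the threshold while the KDM1A difference passed it. The KDM1A call of ADM was lost without either library of control guide 1, any CDKN1A library, any KDM1A library or SPP1 guide 2 replicate 1 (18 fits, log2 -0.50 to -0.35, adjusted p up to 0.165). It was also lost with DESeq2's size factors in edgeR (-0.43, adjusted p 0.0502) and with an offset for transcript length (-0.43, adjusted p 0.0910), which left 0 calls among the 36 genes in the KDM1A comparison and 7 with an unadjusted p under 0.05.

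DDIT4 (REDD1), a stress-induced inhibitor of mTORC1, was the most variable of the 36 genes. It stood at 6.43, 5.64, 3.37 and 4.35 CPM in control, 5.75, 5.32, 13.2 and 12.1 with CDKN1A guides, 2.38, 2.99, 2.40 and 3.77 with KDM1A guides and from 2.54 to 5.25 with a median of 3.22 with SPP1 guides. CDKN1A guide 2 was higher than all other libraries, and CDKN1A guide 1 lay within the control range. DDIT4 was not called against control (adjusted p 0.113, 0.130 and 0.299). P4HA1, a subunit of collagen prolyl 4-hydroxylase, stood at 83.5, 74.0, 101 and 99.0 CPM in control, 74.5, 74.5, 77.2 and 74.3 with CDKN1A guides, 120.1, 126, 92.1 and 90.8 with KDM1A guides and from 82.9 to 107 with a median of 98.5 with SPP1 guides. The control guides themselves differed in P4HA1, the only one of the 36 genes called between them (guide 2 against guide 1, log2 0.34 ± 0.06 (SE, adjusted p = 0.0138)), where 1.34% of all tested genes were called. That call was lost without control guide 1 replicate 2, control guide 2 replicate 1 or control guide 2 replicate 2 (0.28 to 0.44 over 18 fits, adjusted p up to 0.0906).

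NDRG1, a growth arrest and stress gene, stood at 45.1, 42.0, 32.6 and 31.6 CPM in control, 38.3, 36.4, 52.5 and 48.8 with CDKN1A guides, 25.3, 24.9, 35.5 and 37.8 with KDM1A guides and from 30.6 to 46.1 with a median of 37.3 with SPP1 guides. BNIP3 and BNIP3L encode receptors that mark mitochondria for autophagy. BNIP3 stood at 97.0, 85.5, 100.4 and 105 CPM in control, 95.8, 97.6, 84.2 and 88.5 with CDKN1A guides, 79.7, 82.6, 96.9 and 102 with KDM1A guides and from 98.3 to 109 with a median of 105 with SPP1 guides. BNIP3L stood at 115, 118, 136 and 144 CPM in control, 167, 163, 139 and 137 with CDKN1A guides, 139.9, 132, 182 and 180.3 with KDM1A guides and from 137 to 170.2 with a median of 157 with SPP1 guides. Each of the 3 genes overlapped control in every knockdown, and edgeR called none. BNIP3L came nearest, with log2 fold changes of 0.30 (SE 0.10, adjusted p 0.0713) with KDM1A guides and 0.29 (SE 0.09, adjusted p 0.0860) with SPP1 guides, both called by DESeq2. The carbonic anhydrase gene CA12 gave 0.39 (SE 0.12, adjusted p 0.0596) with SPP1 guides and was called there by DESeq2 and not edgeR, and ANKRD37 and P4HA2 were not called (adjusted p from 0.180 to 0.995).

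As a count that uses no model, 8 of the 36 genes (22.2%) had no overlap between the 4 CDKN1A and the 4 control libraries, against 13.1% of all tested genes. ANGPTL4 was above control, and SLC2A1, HK2, PFKL, SLC16A3, ADM, ANKRD37 and P4HA2 were below it. With KDM1A guides 6 genes (16.7%) had none, against 15.7% of all tested genes, with GPI, LDHA and ANGPTL4 above and HIF1A, ALDOC and ADM below. With SPP1 guides 4 genes (11.1%) had none, against 6.34% of all tested genes, with LDHA, LDHB and PFKM above and SLC2A1 below.

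Taking each guide alone against the 4 control libraries, in a fit with 1 coefficient per guide, gave more calls. That fit takes its spread from the libraries of a guide and does not average the guides of a target. A difference between the 2 control guides does not enter its spread either. CDKN1A guide 1 gave 7 calls (4.69% of all tested genes were called) and guide 2 gave 10 (6.22%). Both shared lower SLC2A1, HK2, ADM and P4HA1 and higher ANGPTL4. P4HA1 was itself called between the control guides, and control guide 1 replicate 2 lay below every CDKN1A library in it. In HK2, ADM and ANGPTL4 the control libraries also split by guide without overlap. ADM fell by 0.44 with guide 1 and by 0.56 with guide 2 on the log2 scale (adjusted p 0.00871 and 0.00152). Guide 2, the one with more CDKN1A mRNA left, added higher DDIT4 (1.39), PFKFB3 (0.48) and NDRG1 (0.44) and lower CA12 (-0.53) and SLC16A3 (-0.28), while guide 1 added lower PFKP (-0.22) and higher BNIP3L (0.37). Of these 7 genes only DDIT4 was called between the 2 guides. Of 8 fibroblast markers tested, 5 were called lower with guide 1 (COL1A1, COL1A2, FN1, PDGFRB and S100A4) and 2 with guide 2 (FN1 and PDGFRB), and their part in these calls was not tested.

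KDM1A guide 2 gave 10 calls (14.1% of all tested genes) and guide 3 gave 4 (11.5%). Lower HIF1A, lower ADM and higher ANGPTL4 were called with both. SPP1 guide 1 gave 5 calls (4.58%), guide 2 gave 8 (10.6%) and guide 3 gave 12 (10.5%). Lower SLC2A1 (-0.33, -0.34 and -0.41) and higher BNIP3L (0.28, 0.38 and 0.21) were called with all 3 SPP1 guides. Higher ANGPTL4, CA12 and PFKFB4 and lower ADM and SLC2A3 were called with guides 2 and 3, and higher LDHA, LDHB, PFKM, PKM and ENO1 with guide 3, whose replicate 2 held the highest value of the SPP1 group in each of those 5 genes. Guide 3 was not itself tested against the other SPP1 guides, and the test of guide 1 against guides 2 and 3 called none of the 5 genes. All 7 guides were set against the same control libraries. Among the genes named here, the control libraries split by guide without overlap in HIF1A, ADM, ANGPTL4, BNIP3L, PFKFB4, SLC2A3 and PFKM. That split is not in the spread of this fit, so calls shared by guides do not replicate each other independently. In BNIP3L the SPP1 libraries also overlapped control.

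**Figure D3:**
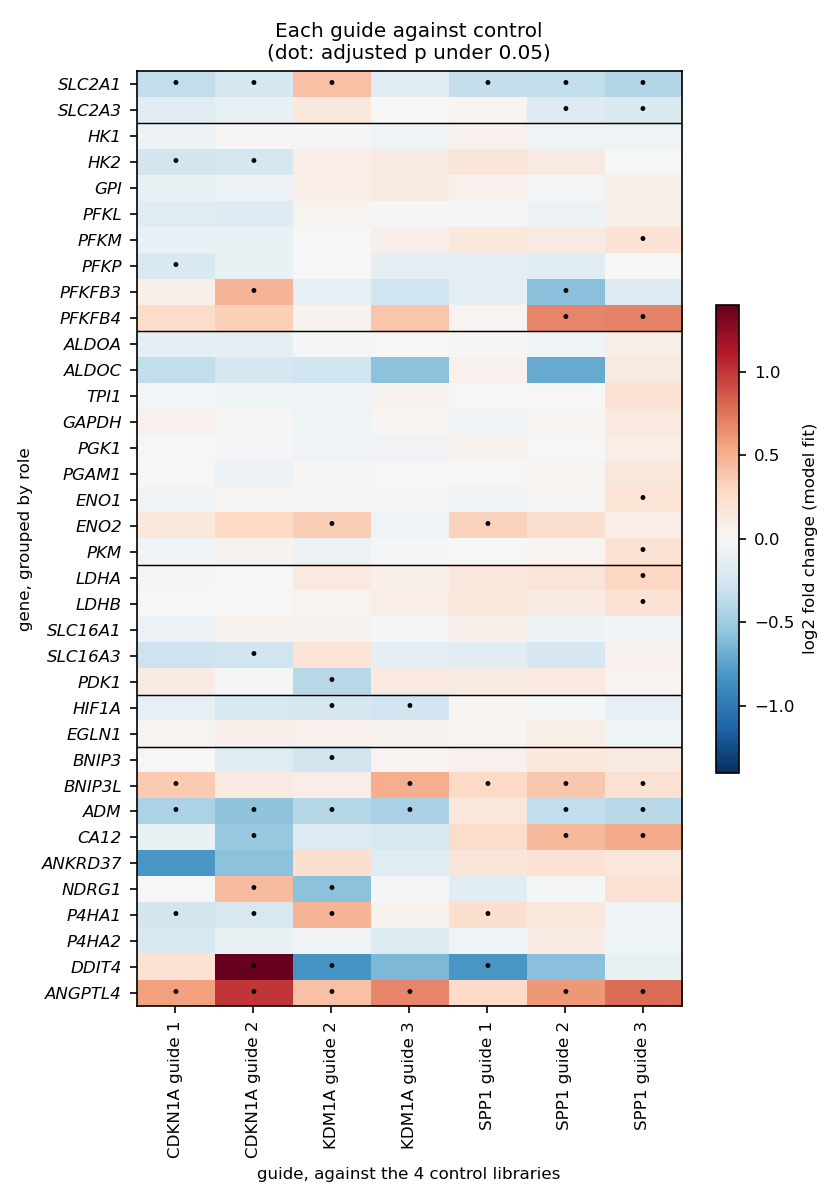
Log2 fold change of the 36 genes (rows, grouped by role from uptake to other HIF targets) for each of the 7 guides against the 4 control libraries, with a dot where the adjusted p was under 0.05. The ANGPTL4 row is positive in all 7 columns, HIF1A has dots in both KDM1A columns and in no other, and the triose phosphate block has 4 dots, ENO2 with KDM1A guide 2 and SPP1 guide 1, and ENO1 and PKM with SPP1 guide 3.

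The 2 KDM1A guides differed from each other in 8 of the 36 genes (22.2%), where 6.15% of all tested genes were called. BNIP3L (0.42 ± 0.06 (SE, adjusted p = 0.000758)), NDRG1 (0.55), PDK1 (0.52) and BNIP3 (0.30) were higher on the log2 scale with guide 3 than with guide 2. SLC2A1 (-0.55 ± 0.08 (SE, adjusted p = 0.000456)), P4HA1 (-0.43), ENO2 (-0.41) and SLC16A3 (-0.32) were lower. The adjusted p of the 8 ranged from 0.000456 (SLC2A1) to 0.0458 (SLC16A3). Guide 2 stood outside the 4 control libraries on one side in SLC2A1, P4HA1, ENO2, SLC16A3, NDRG1, PDK1 and BNIP3, and guide 3 did so in BNIP3L and SLC2A1. The guides also differed in their target, with 73.2 to 75.0 CPM of KDM1A left with guide 2 and 50.7 to 52.0 with guide 3, and what part this had was not tested. Cell type markers moved in the same comparison. Of 8 fibroblast markers 4 (COL1A1, COL1A2, FN1 and PDGFRB) were called lower with guide 3 and 0 higher, with a median log2 fold change of -0.354 over the 8, and of 2 endothelial markers TEK was called lower. The 9 fibroblast markers summed to 13280 to 13567 TPM with guide 2 and 12791 to 12877 with guide 3, and the 5 endothelial markers to 31.6 to 33.8 and 24.4 to 25.7. Their part in the 8 calls was not tested. The calls of BNIP3L, P4HA1 and SLC2A1 stayed in all 18 fits that left out 1 library. Those of NDRG1, PDK1 and ENO2 were lost without any of the 4 KDM1A libraries, and that of BNIP3 without any of them but guide 3 replicate 1. That of SLC16A3 was lost without any KDM1A or CDKN1A library or either library of control guide 2. The adjusted p in these fits reached 0.114 (NDRG1), 0.0900 (PDK1), 0.149 (ENO2), 0.113 (BNIP3) and 0.254 (SLC16A3).

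**Figure D4:**
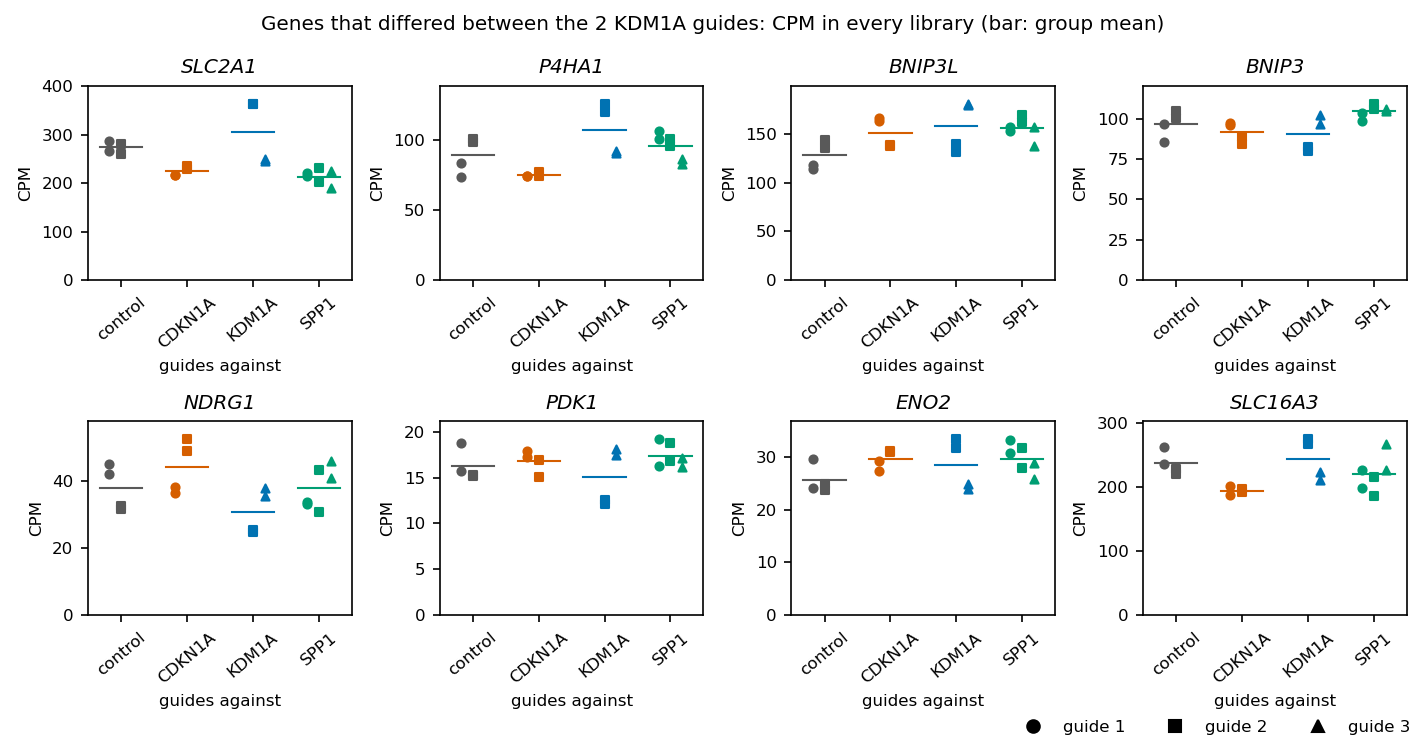
CPM in each of the 18 libraries for the 8 genes called between KDM1A guides 2 and 3, with the marker shape giving the guide and the bar the group mean. The replicates of each KDM1A guide lie close together and the guides apart, as for SLC2A1 at 363 and 364 CPM with guide 2 and 249 and 246 with guide 3.

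Between the CDKN1A guides 1 of the 36 genes was called, DDIT4, which was higher with guide 2 (1.19 ± 0.20 (SE, adjusted p = 0.00656)), where 1.28% of all tested genes were called. That call was lost without CDKN1A guide 1 replicate 1, CDKN1A guide 1 replicate 2 or CDKN1A guide 2 replicate 1 (1.12 to 1.25 over 18 fits, adjusted p up to 0.110). SPP1 guide 1 against guides 2 and 3 gave 3 calls, where 3.90% of all tested genes were called: higher ADM (0.52 ± 0.08 (SE, adjusted p = 0.00333)) and SLC2A3 (0.22) and lower PFKFB4 (-0.65). The ADM call was lost without SPP1 guide 1 replicate 1, and the PFKFB4 call without either library of SPP1 guide 1 or SPP1 guide 2 replicate 1. The SLC2A3 call was lost without 9 of the 18 libraries (both of control guide 2, both of KDM1A guide 2, both of SPP1 guide 1, CDKN1A guide 2 replicate 2, SPP1 guide 2 replicate 2 and SPP1 guide 3 replicate 2). The adjusted p reached 0.0720, 0.199 and 0.281 for ADM, PFKFB4 and SLC2A3.

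The CDKN1A guides differed from the KDM1A and the SPP1 guides in more of these genes than any knockdown did from control. CDKN1A against KDM1A guides gave 10 calls (27.8%, against 14.9% of all tested genes). With CDKN1A guides DDIT4 (1.63 ± 0.29 (SE, adjusted p = 0.000851)), NDRG1 (0.51 (SE 0.16, adjusted p 0.0418)) and PFKFB3 (0.48 (SE 0.13, adjusted p 0.0206)) were higher. HK2 (-0.36 ± 0.06 (SE, adjusted p = 0.000699)), GPI (-0.19), PFKL (-0.18), SLC2A1 (-0.45), SLC2A3 (-0.20), SLC16A3 (-0.33) and P4HA1 (-0.51) were lower. The 7 lower genes include both glucose transporters, a hexokinase, the next enzyme GPI and a phosphofructokinase. Of the same steps the main forms HK1 and PFKP were not called, nor were PFKM and PFKFB4, and PFKFB3 was higher. The calls of DDIT4, GPI, HK2, P4HA1 and SLC2A1 stayed in all 18 fits that left out 1 library, and of these only that of HK2 also stayed without each whole guide. DDIT4 was lost without CDKN1A guide 2 (0.93, adjusted p 0.0559), and P4HA1 (-0.28, 0.135) and SLC2A1 (-0.14, 0.274) without KDM1A guide 2. SLC2A1 was also lost without CDKN1A guide 1 (-0.40, 0.0786). GPI was lost without CDKN1A guide 1 (-0.19, 0.0535) or guide 2 (-0.19, 0.0673) and with the length offset (-0.14, 0.149). NDRG1 was lost without any library of either guide 2, and PFKFB3 without any of CDKN1A guide 2 or KDM1A guide 3. PFKL was lost without replicate 2 of either CDKN1A guide, either library of KDM1A guide 2 or KDM1A guide 3 replicate 1. SLC16A3 was lost without CDKN1A guide 1 replicate 2 or any library of either guide 2. SLC2A3 stayed in only 6, without control guide 1 replicate 2, KDM1A guide 3 replicate 2, SPP1 guide 3 replicate 2, SPP1 guide 2 replicate 2 or either of SPP1 guide 1. The adjusted p reached 0.139 (NDRG1), 0.0792 (PFKFB3), 0.125 (PFKL), 0.100 (SLC16A3) and 0.151 (SLC2A3).

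CDKN1A against SPP1 guides gave 11 calls (30.6%, against 12.0% of all tested genes), and 30 of the 36 genes had a negative log2 fold change, with a median of -0.11 where that of all tested genes was -0.008. Higher with CDKN1A guides were again DDIT4 (1.38 ± 0.26 (SE, adjusted p = 0.00201)) and PFKFB3 (0.57 (SE 0.12, adjusted p 0.00523)). Lower were HK2 (-0.36 ± 0.06 (SE, adjusted p = 0.000702)), GPI (-0.12), PFKL (-0.17), PFKM (-0.25), LDHA (-0.20), LDHB (-0.15), CA12 (-0.70 ± 0.12 (SE, adjusted p = 0.00105)), ANKRD37 (-0.87) and P4HA1 (-0.35). CA12 stood at 29.5, 26.7, 21.2 and 20.5 CPM with CDKN1A guides and from 34.5 to 47.6 with a median of 38.0 with SPP1 guides, without overlap. The calls of CA12, DDIT4, HK2, PFKFB3 and PFKM stayed in all 18 fits that left out 1 library. Without CDKN1A guide 2, however, CA12 (-0.50, adjusted p 0.0655), DDIT4 (0.68, 0.187) and PFKFB3 (0.36, 0.224) were lost, and with the length offset PFKM was (-0.21, 0.188). ANKRD37 and LDHA were lost without CDKN1A guide 1 replicate 2 or either library of CDKN1A guide 2. P4HA1 was lost without any CDKN1A library or any of SPP1 guide 1. PFKL was lost without replicate 2 of either CDKN1A guide, SPP1 guide 1 replicate 1, SPP1 guide 2 replicate 2 or the library labelled SPP1 guide 3 replicate 1. LDHB stayed in 6 of the 18 fits (either library of control guide 1, KDM1A guide 2 replicate 1, either of KDM1A guide 3 or SPP1 guide 2 replicate 1). GPI stayed in 3 (control guide 1 replicate 2, SPP1 guide 2 replicate 1 or SPP1 guide 3 replicate 2). The adjusted p reached 0.0822 (ANKRD37), 0.0655 (LDHA), 0.0872 (P4HA1), 0.140 (PFKL), 0.116 (LDHB) and 0.181 (GPI).

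KDM1A against SPP1 guides gave 3 calls (8.33%, against 11.9% of all tested genes). SLC2A1 was higher with KDM1A guides (0.52 ± 0.10 (SE, adjusted p = 0.00149)), and CA12 (-0.62 ± 0.12 (SE, adjusted p = 0.00215)) and HIF1A (-0.21 ± 0.06 (SE, adjusted p = 0.0238)) were lower. The calls of SLC2A1 and CA12 stayed in all 18 fits that left out 1 library, but without KDM1A guide 2 both were lost and edgeR called 0 of the 36 genes, with 6 at an unadjusted p under 0.05. HIF1A was lost without any KDM1A library, SPP1 guide 2 replicate 1 or the library labelled SPP1 guide 3 replicate 1 (adjusted p up to 0.0786). Over these 3 comparisons DESeq2 called 10, 12 and 5 of the 36 genes, adding ALDOA in CDKN1A against SPP1 guides and SLC2A3 and BNIP3 in KDM1A against SPP1 guides. Of 8 fibroblast markers edgeR called 4, 2 and 3 in these comparisons, and their part was not tested. The comparisons share libraries with each other and with those against control.

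**Figure D5:**
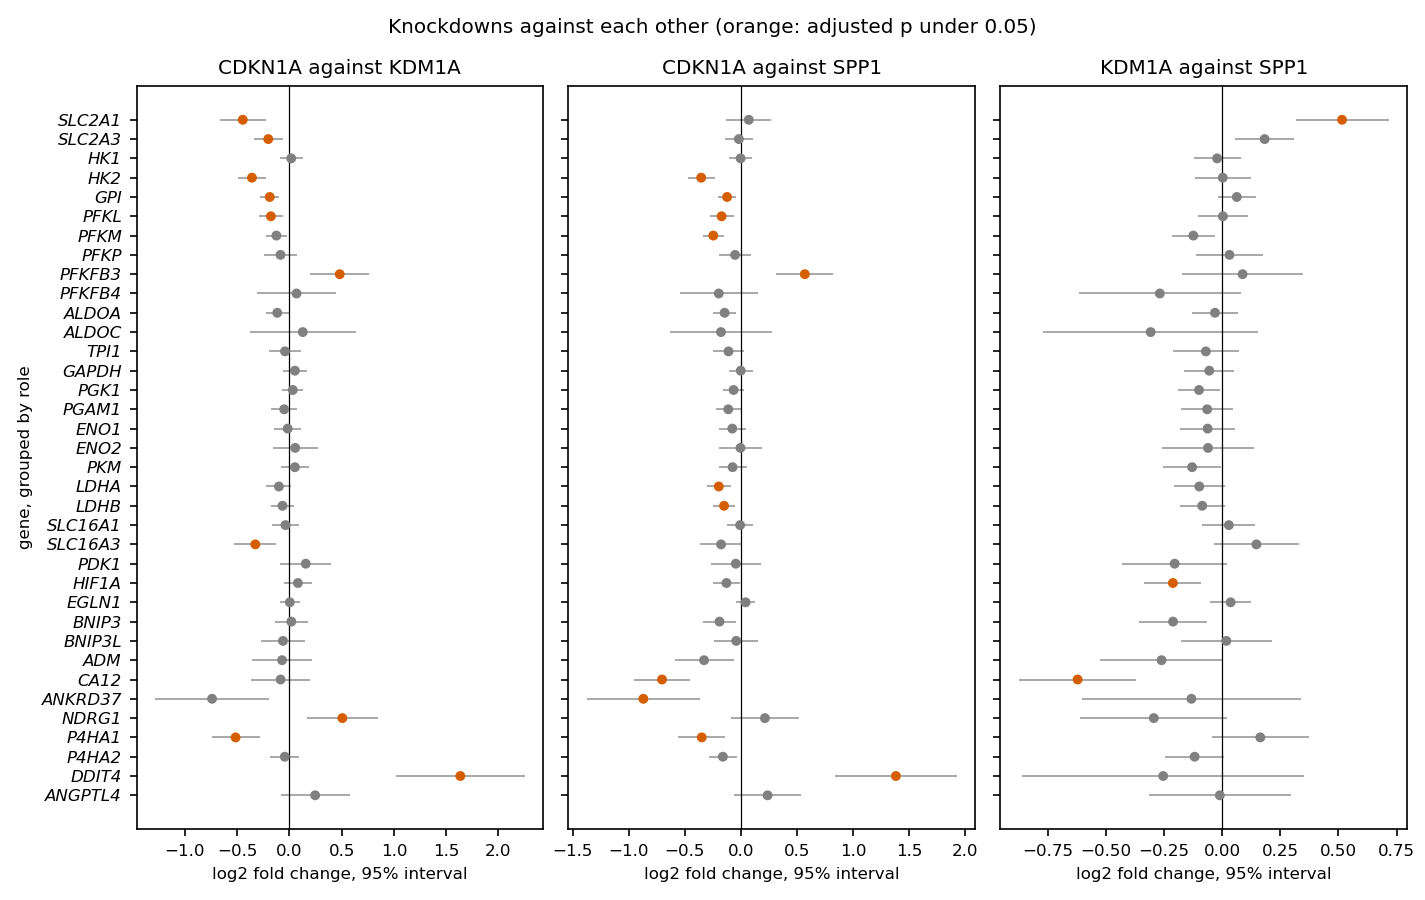
Log2 fold change of the 36 genes with its 95% interval for CDKN1A against KDM1A guides, CDKN1A against SPP1 guides and KDM1A against SPP1 guides, with orange where the adjusted p was under 0.05. DDIT4 lies far to the right in both panels with CDKN1A (1.63 and 1.38), HK2 lies left of 0 in both (-0.36 and -0.36), and the horizontal scales differ between panels.

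The median SD of log2 CPM of the 36 genes over the 18 libraries was 0.124, where that of all tested genes was 0.164. Of the summed squares of the 36, 52.4% lay between the 4 groups, 32.9% between the guides of a group and 14.8% between the libraries of a guide. Over all tested genes it was 31.6%, 28.9% and 39.5%. These parts have 3, 5 and 9 degrees of freedom, and genes with a large SD weigh most in the sums. The 36 genes were not matched for level with all tested genes, and what part level had in these shares was not tested. By single gene, the share between groups ran from 4.0% (SLC16A1) to 77.6% (HK2). DDIT4 had an SD of 0.701, followed by ANKRD37 (0.431) and ALDOC (0.368), and EGLN1, PGK1, HK1 and GAPDH had 0.053 to 0.071. Of all genes tested, those whose log2 CPM followed ADM most closely over the 18 libraries were HAS2 (Pearson's r 0.87), EIF1AD (0.869) and NUAK2 (0.858), and for HK2 they were ADAMTS1 (0.925), SLC25A22 (0.923) and THBS3 (0.892). These are the 3 highest of 13527 for each, given as a description, and the libraries share groups and guides.

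Other genes of the same pathways were taken from lists made for this purpose. For these genes only the reported edgeR fits and DESeq2 were looked at. Whether their calls stay with libraries left out or summed, or with the length offset, was not tested. Against control, edgeR called 2.00% of all tested genes with CDKN1A guides, 9.05% with KDM1A guides and 5.46% with SPP1 guides. Of 12 genes of the HIF machinery, edgeR and DESeq2 called 0 with CDKN1A guides (2 at an unadjusted p under 0.05) and 2 each with KDM1A and SPP1 guides. EPAS1 (HIF-2 alpha), the second oxygen-labile HIF subunit, stood at 70.2 ± 5.13 CPM in control (SD, n = 4), 46.8 ± 4.99 with KDM1A guides and 46.6 ± 8.24 with SPP1 guides. It fell in both (-0.58 ± 0.11 (SE, adjusted p = 0.00236) and -0.59 ± 0.10 (SE, adjusted p = 0.00433)), and with CDKN1A guides it gave 0.10 ± 0.11 (SE, adjusted p = 0.700). VHL, the recognition subunit of the ligase that removes HIF subunits, rose in both, by 0.28 and 0.19 on the log2 scale (adjusted p 0.00298 and 0.0393).

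Of 21 further HIF targets tested, edgeR called 2 with CDKN1A guides (1 up, 1 down), 6 with KDM1A guides (4 up, 2 down) and 4 with SPP1 guides (2 up, 2 down). In that order 2.00%, 9.05% and 5.46% of all tested genes were called. STC1 (stanniocalcin 1) rose with KDM1A guides (0.85 (SE 0.14, adjusted p 0.000650)) and SPP1 guides (0.54 (SE 0.13, adjusted p 0.0206)), as did the glycogen regulator PPP1R3C (1.09 (SE 0.16, adjusted p 0.000179) and 0.67 (SE 0.15, adjusted p 0.0153)). STC2 (0.48) and the collagen lysyl hydroxylase PLOD1 (0.25) rose and the nuclear receptor RORA fell (-1.14) with KDM1A guides, the lipoprotein receptor VLDLR rose with CDKN1A guides (0.66), and IGFBP3 fell with SPP1 guides (-1.04). VEGFA was not called by edgeR, with -0.42 (SE 0.13, adjusted p 0.0526) with KDM1A guides and 0.36 (SE 0.13, adjusted p 0.153) with CDKN1A guides, and DESeq2 called it with KDM1A guides and NAMPT with CDKN1A guides.

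The lists that follow are to be read beside the shares of all tested genes called against control. These were 2.00%, 9.05% and 5.46% with CDKN1A, KDM1A and SPP1 guides. Of 11 further glycolytic isoenzyme genes tested, edgeR called only PGM1, which links glycogen to glycolysis, lower with CDKN1A guides (-0.29 (SE 0.07, adjusted p 0.0467)). DESeq2 called PGM1 there and PGM2 with SPP1 guides, where edgeR gave -0.15 (SE 0.05, adjusted p 0.0602). Of 12 genes of pyruvate entry into mitochondria, edgeR and DESeq2 called 0 with CDKN1A or KDM1A guides (3 and 2 at an unadjusted p under 0.05), and DLD (0.18 (SE 0.05, adjusted p 0.0255)) and pyruvate carboxylase PC (0.46 (SE 0.10, adjusted p 0.0157)) rose with SPP1 guides. Of 20 citrate cycle genes edgeR called 1 in each knockdown, and DESeq2 also SUCLG2 with SPP1 guides: IDH2 fell with CDKN1A guides (-0.35 (SE 0.07, adjusted p 0.0150)), OGDH rose with KDM1A guides (0.24 (SE 0.05, adjusted p 0.00454)) and IDH1 rose with SPP1 guides (0.32 (SE 0.09, adjusted p 0.0352)). Of the 7 pentose phosphate genes edgeR called 0 in any knockdown against control, with 3, 2 and 1 at an unadjusted p under 0.05 for CDKN1A, KDM1A and SPP1 guides, and DESeq2 called PGD with CDKN1A guides.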

How the data were processed

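Bulk poly(A) RNA was sequenced from 18 hiF-T libraries. Per the submitters' processing notes, the authors used kallisto with GRCh38 (hg38). The kallisto version, settings and transcriptome are not given in the sources. For 188753 transcripts the authors deposited, 1 table per library, estimated (expected) counts, TPM and effective lengths. The deposited estimated counts are not scaled to depth, and the deposited TPM are scaled to transcript length and library.

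Ensembl identifiers assigned 169797 transcripts to 35579 genes of GENCODE 29. Transcripts without a match, with 2.49 to 2.62% of a library's counts, were dropped. The deposited TPM were summed per gene and not rescaled to the matched transcripts. Gene sums of the estimated counts were rounded, and edgeR's filterByExpr (count minimum 10) chose the genes tested. With edgeR 4.0.16 (R 4.3.3), scaled by TMM, a quasi-likelihood model was fitted to all 18 libraries with 1 coefficient per group (14 residual degrees of freedom, common dispersion 0.00869), and another with 1 per guide (9, 0.00478). P-values were adjusted (Benjamini-Hochberg) over all 13527 genes. The SE comes from the fold change and the F statistic. For single genes, log2 CPM had a prior count of 2. The fit with 1 coefficient per group was also run on simulated counts that held no difference between guides of a group. That run cannot show how the calls hold where guides differ, as they do here.

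Levels are compared between genes in TPM, and differences were tested on counts. Depth, in units of 1e6 counts, was 11.91 to 17.02. No 2 libraries agreed within sampling noise: those of a group differed by 1.38 to 10.43 times the Poisson value over 33 pairs. Values are given in every library, or as range and median for the 6 SPP1 libraries, for each gene called in a knockdown against control or between guides, and for HIF1A, GAPDH, LDHA, PGK1 and SLC2A1. The alternatives were DESeq2 1.42.0, other scalings, no filter, a length offset from the deposited effective lengths, 2 groups alone, libraries of a guide summed, a replicate block, and leaving out each guide or library. The genes, the role groups, the 6 pathway lists (HIF machinery, further HIF targets, further glycolytic isoenzymes, pyruvate entry into mitochondria, pentose phosphate, citrate cycle), the near-identical copies and the cell type markers were chosen with earlier results of these data known. The counts over these lists cover all tested genes of a list, and the values of 1 gene are not reported here.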

Additional observations from a re-analysis of the deposited data

Results flagged for a closer look

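A library far from the rest of its group, by Dixon's test, was found in 6 of 76 combinations of gene and group among the 19 genes given in every library, and chance gives about 1 in 20. In 4 of the 6 it was SPP1 guide 3 replicate 2. It held 4929 CPM of GAPDH (the other 5 SPP1 libraries 4044 to 4344), 1734 CPM of LDHA (1431 to 1506), 88.77 CPM of PFKM (78.0 to 81.9) and 520 CPM of HIF1A (612 to 655). Its SPP1 mRNA, at 21.7 CPM, was also lower than the 63.0 CPM of its replicate. The 5th was CDKN1A guide 2 replicate 1, with 77.19 CPM of P4HA1 (74.3 to 74.5 in the other 3), and the 6th control guide 1 replicate 1, with 18.8 CPM of PDK1 (15.1 to 15.7).

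Guides against 1 target differed from each other in 12 tests of these genes. With CDKN1A guide 2 against guide 1 the log2 difference of DDIT4 was 1.192. With KDM1A guide 3 against guide 2 it was 0.546 for NDRG1, 0.415 for BNIP3L, 0.523 for PDK1, 0.296 for BNIP3, -0.409 for ENO2, -0.555 for SLC2A1, -0.431 for P4HA1 and -0.323 for SLC16A3. With SPP1 guide 1 against guides 2 and 3 it was 0.223 for SLC2A3, 0.524 for ADM and -0.646 for PFKFB4. What part the amount of target mRNA left by each guide had in these differences was not tested.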

How the results depend on the processing

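Of 1428 refits of single called genes under an alternative, 1059 kept the direction and the call, 369 kept the direction and lost the call, and 0 reversed. Most refits used nearly the same libraries as the reported fit, and some left out only libraries of groups not compared. A kept direction is therefore no independent support. The count of called genes stayed within 1.5 times in 197 of 294 refits. No scaling moved the median log2 fold change of all genes by over 0.1. Counts below follow the order CDKN1A, KDM1A and SPP1 guides against control, then CDKN1A against KDM1A, CDKN1A against SPP1 and KDM1A against SPP1 guides, where the counts reported were 2, 3, 4, 10, 11 and 3. The share of all tested genes called under each setting is not given here. A rise or fall of a count can therefore not be read as particular to these genes.

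With DESeq2 they were 3, 4, 7, 10, 12 and 5, and between guides 3 (CDKN1A), 8 (KDM1A), 1 (SPP1) and 5 (control) in place of 1, 8, 3 and 1. With DESeq2's size factors in edgeR the control guides gave 2. With the length offset they were 1, 0, 2, 5, 5 and 2. With only the 2 groups compared they were 5, 3, 1, 12, 10 and 2. With the libraries of a guide summed edgeR called 0 in each of the 6, with 7, 3, 7, 11, 10 and 4 genes at an unadjusted p under 0.05. The replicate numbers did not pair the samples: over 36 pairs of guides the differences between replicates correlated by -0.117 to 0.073. With the replicate block the counts were 1, 1, 2, 8, 9 and 3.

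Without CDKN1A guide 1 the counts were 2, 3, 3, 5, 5 and 3, and without CDKN1A guide 2 they were 0, 3, 3, 3, 2 and 3 (in the first, 10 genes had an unadjusted p under 0.05). Without KDM1A guide 2 they were 2, 1, 4, 3, 10 and 0, and without KDM1A guide 3 they were 2, 4, 6, 10, 11 and 8. Without SPP1 guide 1 they were 3, 3, 7, 10, 8 and 4. Without SPP1 guide 2 they were 1, 1, 0, 10, 11 and 2, and without SPP1 guide 3 they were 3, 3, 1, 10, 10 and 3. Without control guide 1 they were 1, 1, 0, 9, 12 and 4. Leaving out 1 library at a time gave 0 to 3, 0 to 3, 0 to 5, 5 to 10, 5 to 12 and 2 to 5, and between guides 0 to 5 (CDKN1A), 3 to 8 (KDM1A), 0 to 8 (SPP1) and 0 to 8 (control). The settings that leave out or sum libraries test fewer samples and also change the values compared. In no setting was the cause of a change tested. CA9 and EGLN3 were too low to compare at this depth.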
